A study of Homo sapiens with 16 samples.

Results

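Toledo cells are an established line of diffuse large B-cell lymphoma. Chromatin from cells kept 6 days with 5 uM of TP-064, which inhibits CARM1, an enzyme that methylates arginines in histones and other proteins, was immunoprecipitated for H3K27ac and for H3K4me1, with 2 libraries for each mark. These 4 libraries of the 16 in the series, and the peaks called in them, are compared here mark against mark. Cells in the solvent DMSO for the same 6 days had 2 libraries of each mark, and H3K4me3 was mapped under both treatments. The labels name no genotype, and all groups are the same line. Every inhibitor library is labelled with sequencing lane 4 and every DMSO library with lane 3, and the 2 factors cannot be told apart. Whether replicates are separate cultures is not in the labels, and p-values here measure the spread between libraries, which may be technical.

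H3K4me1 is placed mainly by the KMT2C and KMT2D methyltransferases and is typical of enhancers, both those in use and those that are only primed. H3K27ac is placed by CREBBP and EP300 and marks enhancers and promoters in use. An enhancer in use therefore usually carries both marks, a primed one H3K4me1 without H3K27ac, and an active CpG-rich promoter H3K27ac with H3K4me3 and little H3K4me1 at its centre.

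Peaks of the 4 lists were joined into sites wherever any base pair was shared or 2 peaks met end to end. Of 9993 sites, 676 (6.76%) had both marks in both replicates. Another 1769 (17.7%) had H3K27ac in both replicates and H3K4me1 in neither, and 1218 (12.2%) had H3K4me1 in both replicates and H3K27ac in neither. The other 6330 sites had at least one of the marks in a single library and are counted as partial. Most of these, 2735 and 2569, were a lone H3K4me1 peak or a lone H3K27ac peak of 1 library, and 513 had H3K27ac in both libraries but H3K4me1 in 1. Of the 2958 sites with H3K27ac in both replicates, 22.9% had H3K4me1 in both, 17.3% in 1 and 59.8% in neither. Of the 2121 sites with H3K4me1 in both replicates, 31.9% had H3K27ac in both, 10.7% in 1 and 57.4% in neither.

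The lists hold positions without scores or reads, so read depth is unknown and a missing peak may be a site under the caller's threshold. Leaving out 1 H3K27ac library raised the sites with H3K27ac alone to 3175 (without replicate 1) or 3166 (without replicate 2). Leaving out 1 H3K4me1 library raised those with H3K4me1 alone to 2715 (without replicate 1) or 2613 (without replicate 2). With 1 library of a mark left, a peak in that library was enough, so the direction of these changes was set by the class rule.

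Sites were ranked by the base pairs a mark covered, as the mean of its 2 libraries, and sites with both marks by the mark that covered less. The following promoters belong to the first 2 sites of each class, among the first 10 in this order, in which a 5′ end of the nearest gene lies. They are shown because the classes differed in CpG content, and CG dinucleotides are in capitals. Each is the 250 bases before the 5′ end (RefSeq, GRCh38.p14), given 5′ to 3′. GRK2 encodes a kinase that desensitises G protein-coupled receptors, and MEF2D is a transcription factor of germinal centre B cells. Both lay in sites with both marks, MEF2D at a 5′ end inside the gene.
GRK2, chr11:67266223-67266472, plus strand: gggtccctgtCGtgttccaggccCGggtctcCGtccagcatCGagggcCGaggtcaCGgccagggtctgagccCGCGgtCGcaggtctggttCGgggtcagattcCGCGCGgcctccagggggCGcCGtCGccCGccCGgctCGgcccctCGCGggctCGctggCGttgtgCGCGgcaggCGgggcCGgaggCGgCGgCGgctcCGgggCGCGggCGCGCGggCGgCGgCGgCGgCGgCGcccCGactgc
MEF2D, chr1:156490688-156490937, minus strand: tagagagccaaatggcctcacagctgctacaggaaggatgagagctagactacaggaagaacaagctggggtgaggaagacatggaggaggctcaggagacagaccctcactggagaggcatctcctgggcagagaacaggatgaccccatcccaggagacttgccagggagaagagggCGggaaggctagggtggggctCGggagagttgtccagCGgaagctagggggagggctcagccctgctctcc
RUBCNL encodes a regulator of autophagy, and PAX5 is the transcription factor that keeps B-cell identity. Both lay in sites with H3K27ac alone.
RUBCNL, chr13:46387253-46387502, minus strand: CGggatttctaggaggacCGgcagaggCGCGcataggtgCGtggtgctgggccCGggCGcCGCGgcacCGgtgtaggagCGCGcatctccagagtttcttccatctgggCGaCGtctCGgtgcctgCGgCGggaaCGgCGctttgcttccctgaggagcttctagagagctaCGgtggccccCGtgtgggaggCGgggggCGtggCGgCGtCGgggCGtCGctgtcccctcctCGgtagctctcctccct
PAX5, chr9:37034269-37034518, minus strand: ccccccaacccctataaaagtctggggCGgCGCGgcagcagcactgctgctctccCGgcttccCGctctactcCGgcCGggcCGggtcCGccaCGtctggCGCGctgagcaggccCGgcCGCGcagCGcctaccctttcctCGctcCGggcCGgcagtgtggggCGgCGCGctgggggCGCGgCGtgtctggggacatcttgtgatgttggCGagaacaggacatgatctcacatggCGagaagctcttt
MYBPH encodes a myosin-binding protein, and RARA is a retinoic acid receptor. Both lay in sites with H3K4me1 alone, RARA at a 5′ end inside the gene.
MYBPH, chr1:203175827-203176076, minus strand: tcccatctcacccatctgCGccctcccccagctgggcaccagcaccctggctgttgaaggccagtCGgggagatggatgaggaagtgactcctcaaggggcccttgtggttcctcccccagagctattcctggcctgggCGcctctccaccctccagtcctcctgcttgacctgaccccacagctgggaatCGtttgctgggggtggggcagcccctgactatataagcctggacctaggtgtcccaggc
RARA, chr17:40341916-40342165, plus strand: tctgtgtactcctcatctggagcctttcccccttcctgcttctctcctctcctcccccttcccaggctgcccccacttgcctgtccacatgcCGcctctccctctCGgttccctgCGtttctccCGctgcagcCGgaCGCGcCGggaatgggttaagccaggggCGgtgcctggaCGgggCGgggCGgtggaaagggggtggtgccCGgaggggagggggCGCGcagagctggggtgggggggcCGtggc
The 250 bases held 29 CG dinucleotides at RUBCNL and 27 at PAX5, against 4 at MYBPH and 16 at RARA. The 2 promoters shown for sites with both marks lay at the extremes, with 43 at GRK2 and 3 at the 5′ end inside MEF2D. The MEF2D site also holds the gene's own start, at chr1:156500775, whose sequence is not shown.

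Over all promoters in the table (250 bases before to 50 after the 5′ end), those whose 5′ end lay in a site with H3K27ac alone were the richest of the 3 classes in CpG. Their median was 28 CG dinucleotides per 300 bases (quartiles 19.75 and 36, 1220 promoters of 885 genes). The median was 12 (7 and 25) for the 134 promoters in sites with H3K4me1 alone, and 19 (7 and 34) for the 141 in sites with both marks. All 21177 promoters had a median of 21. The GC content differed little, at a median of 66.7%, 64.3% and 64.7%, against 62.7% over all promoters. At least 10 CG dinucleotides were found in 91.2% of promoters with H3K27ac alone, 61.9% of those with H3K4me1 alone and 65.2% of those with both marks. The 1273 promoters in partial sites were close to H3K27ac alone, with a median of 27 and 89.6% with at least 10. High CpG content was therefore not particular to H3K27ac alone.

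Short motifs were counted in the same 300 bases on both strands, and not all of those counted are given here. The GC box GGGCGG was in 71.1% of promoters with H3K27ac alone, 56.0% with H3K4me1 alone, 59.6% with both marks and 56.8% of all. The ETS core CGGAAG was in 31.3%, 14.2% and 22.0% respectively, and 24.0% of all. The PU.1 core GAGGAAG was in 15.1% with H3K27ac alone, 31.3% with H3K4me1 alone, 16.3% with both marks and 14.3% of all. In promoters of partial sites the GC box was in 72.3%, the ETS core in 34.8% and the PU.1 core in 14.6%. The GC box and the ETS core each hold a CG, and the ETS and PU.1 cores share the letters GGAA. A match describes letters only, and promoters of 1 gene can share sequence.

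The overlap of the marks was measured next in each library, against the other mark of the same replicate number. H3K4me1 overlapped 25.7% of the 4771 H3K27ac peaks of replicate 1 (95% Wilson interval 24.5 to 26.98) and 24.2% of the 4595 of replicate 2 (22.96 to 25.4). H3K27ac overlapped 32.8% of the 4094 H3K4me1 peaks of replicate 1 (31.4 to 34.2) and 29.4% of the 4242 of replicate 2 (28.1 to 30.8). These intervals cover counting error only. The difference of -6.15 percentage points between the marks had an exact permutation p of 0.333, the smallest that 2 libraries against 2 can give. Both shares count the same overlaps, of 1227 and 1111 H3K27ac peaks with 1342 and 1248 H3K4me1 peaks, over H3K27ac lists that were longer. The difference thus depends on list length, and was -3.13 points in lists of equal length. By covered base pairs the marks shared 2.38 and 1.99 Mb, a Jaccard index of 0.139 and 0.125. The 2 H3K27ac lists had an index of 0.514 with each other and the 2 H3K4me1 lists 0.375, which is higher than either index between marks.

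With DMSO, H3K4me1 overlapped 70.1% of H3K27ac peaks in replicate 1 and 40.7% in replicate 2, a mean of 55.4% ± 20.8 (SD, n = 2) against 24.9% ± 1.1 with the inhibitor (exact permutation p = 0.333). Both DMSO libraries lay above both inhibitor libraries. The H3K4me1 lists of DMSO were longer, at 25058 and 9673 peaks, and list length moved with treatment. In lists of equal length, the widest 4016 peaks of each, the DMSO shares were 47.5% and 28.5% and the inhibitor shares 28.3% and 25.6%. The difference between treatments then shrank from -30.5 to -11.1 percentage points. Without the H3K4me1 list of DMSO replicate 1 the difference was -14.3 points, and without that of replicate 2 it was -43.5.

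**Figure D1:**
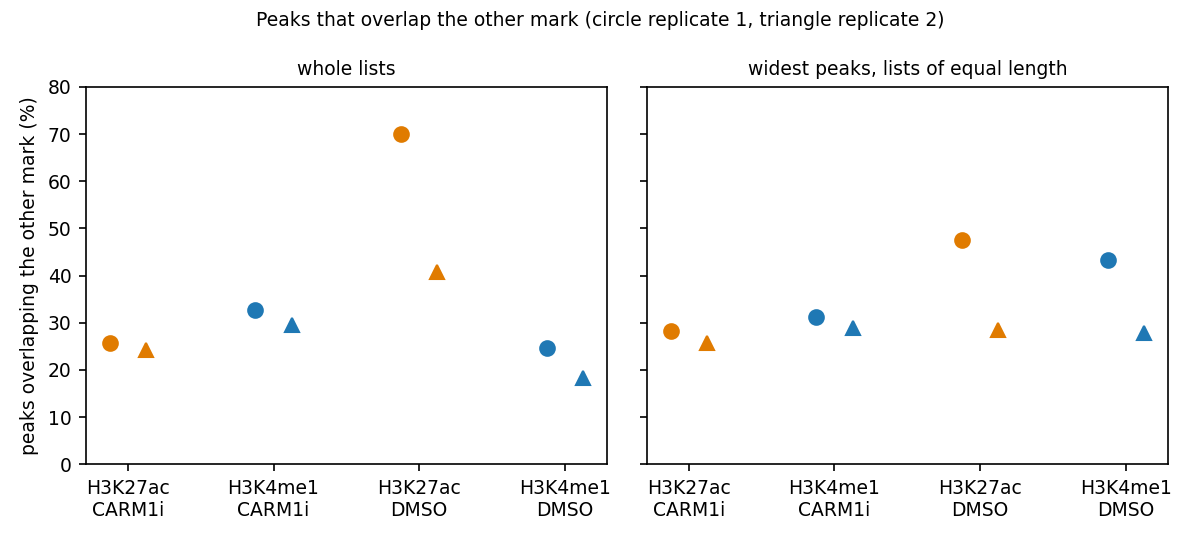
Share of peaks (%) in each library that overlap a peak of the other mark with the same replicate number, for whole lists (left) and the widest 4016 peaks of each list (right). Each point is 1 library. The 4 inhibitor libraries sit between 24.2% and 32.8% in whole lists, while H3K27ac with DMSO reaches 70.1% and falls to 47.5% in lists of equal length.

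Median peak width did not separate the marks. It was 1773 and 1671 bp for H3K27ac and 1852 and 1616.5 bp for H3K4me1, with overlapping groups (exact permutation p = 1). In each of the 4 libraries the peaks that overlapped the other mark were wider than those that did not. A wide peak meets another more easily where any shared base pair counts, and the part of this in the difference was not tested. The medians were 2452 against 1616.5 bp and 2366 against 1505 bp for H3K27ac, and 2183.5 against 1738 bp and 1855 against 1523.5 bp for H3K4me1.

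Sites with both marks had a median width of 4719 bp (quartiles 3660.25 and 6482), against 2122 bp for H3K27ac alone and 2402 bp for H3K4me1 alone. A site with both marks joins peaks of 4 libraries and a site with a single mark those of 2, and the part of this in the widths was not tested. H3K27ac covered a median of 3180.5 and 2863 bp per library at sites with both marks, and 1892 and 1772 bp where it was alone. H3K4me1 covered 3102 and 2768 bp against 2135 and 1937.5 bp. Long cover makes a meeting of the marks likelier, and its part in these values was not tested either. Within the 676 sites neither mark was regularly the longer. H3K27ac covered more than H3K4me1 in both replicates at 259 sites and less in both at 245. A median of 71.2% and 63.7% of the H3K27ac base pairs also carried H3K4me1, and the centres of the widest peaks of each mark lay 928.75 and 879.5 bp apart. At 16 sites in replicate 1 and 25 in replicate 2 the marks lay side by side without a shared base pair.

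The 5 sites furthest from equal cover on each side were picked after their values were seen. H3K27ac exceeded H3K4me1 most at PITPNM2, a phosphatidylinositol transfer protein (6639 and 6068 against 991 and 1101 bp), without H3K4me3. It was also far the longer beside IGLL5, an immunoglobulin lambda-like gene, where it covered 27673 and 26119 bp and H3K4me1 5811 and 3196 bp (chr22:22920314-22947986, 24203 bp from the gene). It was likewise longer at ASXL1, a partner of a histone deubiquitinase (18791 and 18048 against 1414 and 5650 bp), at IFNLR1, a receptor for type III interferons (5332 and 5144 against 1137 and 1059 bp), and at IRF2BP2, a transcriptional corepressor (15654 and 15045 against 3310 and 3336 bp). H3K4me3 covered 9769 and 8106 bp at the ASXL1 site, 9014 and 8537 bp at IRF2BP2, 2885 and 2665 bp beside IGLL5 and 1172 and 1206 bp at IFNLR1. H3K4me1 was far the longer at PTPN6, the phosphatase that dampens B-cell receptor signals, with 11595 and 11313 bp against 1472 and 1345 bp of H3K27ac. The same held at MAPKAPK2, a stress kinase (10337 and 10086 against 1626 and 2257 bp), and at CD48, a lymphocyte surface protein (7366 and 7266 against 1386 and 1472 bp). It held at COA1 (6126 and 5921 against 1309 and 1185 bp) and at KCNN3, a potassium channel (12611 and 9704 against 3336 and 1866 bp), as well. H3K4me3 covered 2197 and 1716 bp at PTPN6, 2890 and 2873 bp at MAPKAPK2 and 1824 and 1313 bp at CD48, and was without a peak at COA1 and KCNN3. MAPKAPK2 had no H3K27ac peak in either DMSO library at this site.

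**Figure D2:**
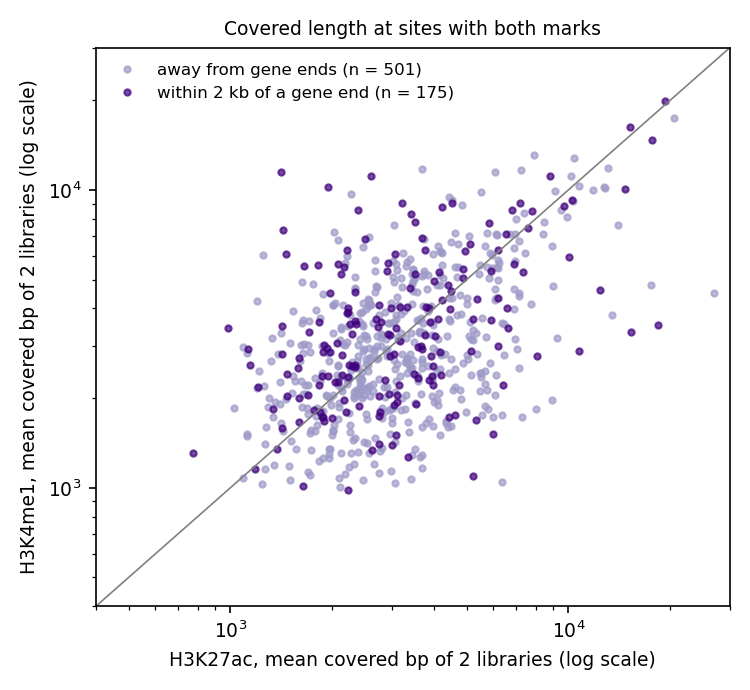
Base pairs covered by H3K27ac (x axis) and by H3K4me1 (y axis), as the mean of 2 inhibitor libraries, on log axes. Each point is 1 of the 676 sites with both marks, dark for the 175 within 2 kb of a gene end, and the line marks equal cover. Points lie on both sides of the line, with the IGLL5 site furthest to the right.

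Position at gene ends set H3K27ac alone apart, while the other 2 classes were close to each other there. Gene ends are the first and last base of 19974 protein-coding genes, and a site counted there if it came within 2 kb. Of the sites with H3K27ac alone 51.2% lay at a gene end, against 25.9% with both marks and 28.8% with H3K4me1 alone. Gene bodies held 23.8%, 44.4% and 50.3%, and stretches between genes 25.04%, 29.7% and 20.9%. Over all 9993 sites, 32.0% lay at gene ends, 37.7% in gene bodies and 30.4% between genes. Counted by 5′ ends alone, outside chromosome 8, for which no 5′ ends were used here, the shares within 2 kb were 49.5%, 17.8% and 17.9%. For all sites outside chromosome 8 this share was 26.3%. The median distance from the centre of a site to the nearest 5′ end was 4944 bp for H3K27ac alone, 31061 bp for both marks and 19783 bp for H3K4me1 alone. Sites with H3K4me1 alone lay in gene-rich surroundings, with a median of 15 genes within 500 kb on either side, against 11 for both marks and 8 for H3K27ac alone.

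At the level of libraries, 39.1% and 35.0% of H3K27ac peaks and 23.8% and 23.6% of H3K4me1 peaks lay at gene ends. The groups did not overlap, and the means of 37.0% ± 2.9 and 23.7% ± 0.1 (SD, n = 2) differed by 13.4 percentage points (exact permutation p = 0.333). The difference in gene bodies was -16.8 points.

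H3K4me3, the promoter mark, was not used to form the classes. It overlapped 40.9% and 35.5% of H3K27ac peaks and 10.3% and 8.56% of H3K4me1 peaks, a difference of 28.8 points (exact permutation p = 0.333). Both H3K4me3 libraries had a peak in 57.0% of the sites with H3K27ac alone, in 14.5% of those with both marks and in 7.06% of those with H3K4me1 alone. Over all sites, 25.2% had H3K4me3 in both libraries. At gene ends, 845 of the 905 sites with H3K27ac alone (93.4%) had it, against 79 of 175 with both marks (45.1%) and 71 of 351 with H3K4me1 alone (20.2%). Away from gene ends and without H3K4me3 in either library there were 678 sites with H3K27ac alone, 475 with both marks and 850 with H3K4me1 alone. Sites with H3K27ac alone thus held a promoter group of 845 and a distal group of 678. The distal sites were the wider, at a median of 2446.5 bp against 1806 bp.

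**Figure D3:**
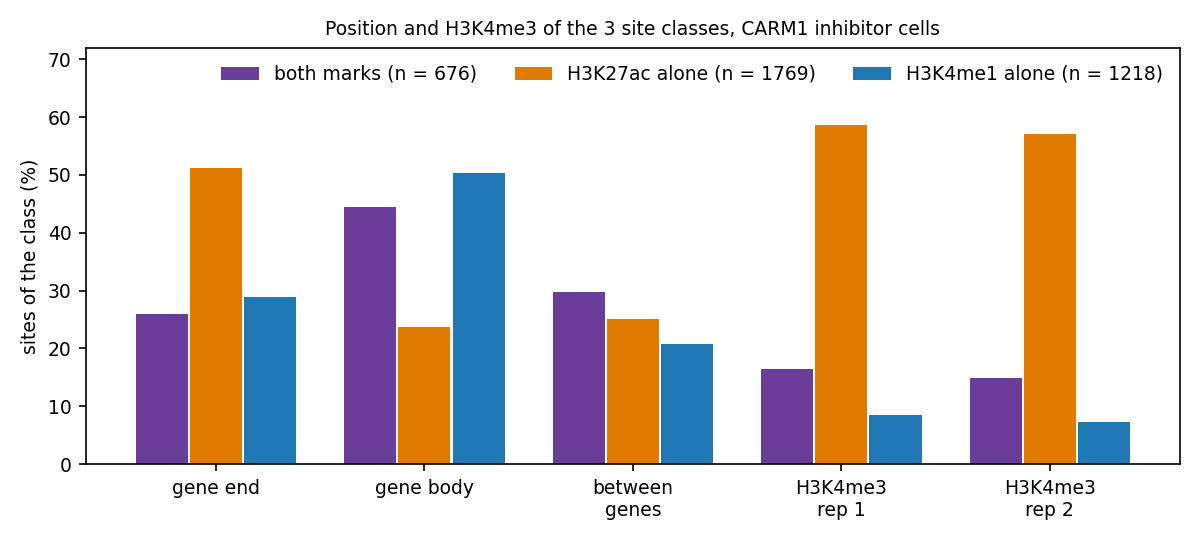
Share of sites (%) of each class by position (gene end, rest of the gene, between genes) and with an H3K4me3 peak in each inhibitor library. Bars are shares of the 676, 1769 and 1218 sites, without error bars since sites are not replicates. H3K27ac alone stands out at gene ends (51.2%) and with H3K4me3 (58.7% and 57.2%).

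Few sites with H3K27ac alone stood next to H3K4me1. An H3K4me1 peak of either inhibitor library lay within 5 kb of 12.6% of them, and the median distance was 100103 bp. For H3K4me1 alone, an H3K27ac peak lay within 5 kb of 14.3%, at a median distance of 44100.5 bp.

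The DMSO lists were then read at the same sites. Of the sites with both marks, 469 of 676 (69.4%) had both marks in all 4 DMSO libraries. Sites with H3K4me1 alone had H3K4me1 in 98.4% and 88.1% of cases in the 2 DMSO libraries and H3K27ac in 24.2% and 7.31%. H3K27ac was in both DMSO libraries at 83 of the 1218 (6.81%), and without the replicate 2 list this share is the 24.2% of replicate 1. Sites with H3K27ac alone had H3K27ac with DMSO in 85.8% and 62.9% of cases and H3K4me1 in 71.5% and 28.7%. Both DMSO libraries had H3K4me1 at 496 of these 1769 sites (28.0%), and the share was 10.5% in lists of equal length. Over all 9993 sites, H3K4me1 was in both DMSO libraries at 48.8% and H3K27ac at 27.3%.

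The DMSO state varied with position. Among sites with H3K27ac alone, 19.1% at gene ends, 35.6% in gene bodies and 39.1% between genes had H3K4me1 in both DMSO libraries. In DMSO replicate 1 the shares were 61.4%, 79.6% and 84.4%, so the order was the same in the longer list. The sites at gene ends were also narrower, at a median of 1842 bp against 2404 and 2368 bp. The part of width in these shares was not tested, and positions were not split in lists of equal length. Sites with H3K4me1 alone had it in both DMSO libraries at 92.9%, 85.8% and 86.2% of these positions.

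**Figure D4:**
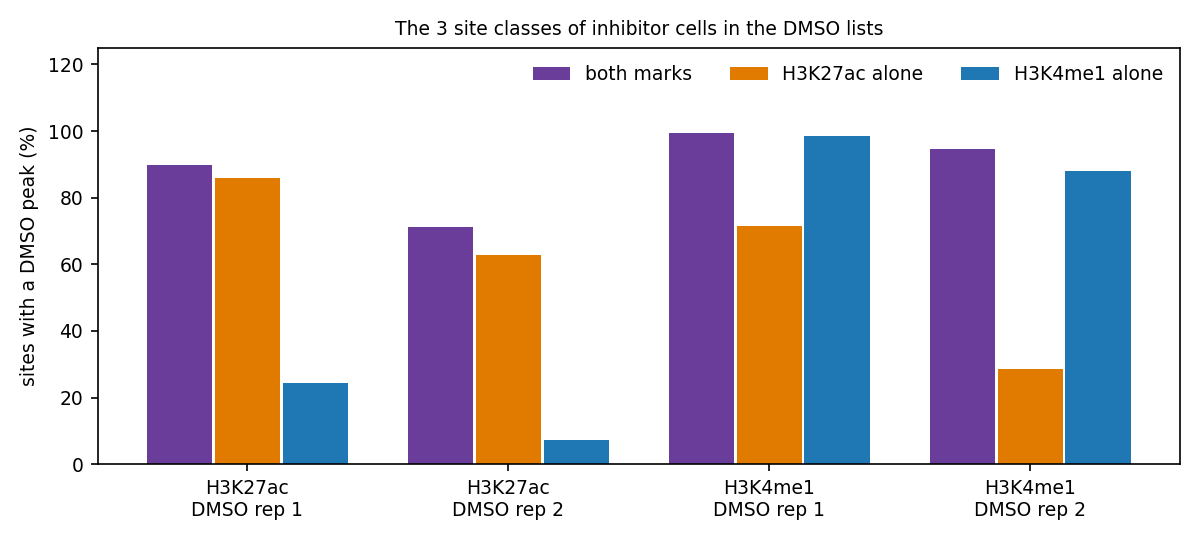
Share of sites (%) of each class in inhibitor cells that had an H3K27ac or H3K4me1 peak in each DMSO library. Bars are shares of the 676, 1769 and 1218 sites. H3K4me1 alone had DMSO H3K27ac in 24.2% and 7.31% of sites, and H3K27ac alone had DMSO H3K4me1 in 71.5% and 28.7%.

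Read from the other side, the DMSO lists alone gave 1517 sites with both marks in both replicates. With the inhibitor, 501 of these (33.0%) had both marks in all libraries, 293 (19.3%) H3K27ac alone, 73 (4.81%) H3K4me1 alone and 117 (7.71%) no peak of either mark. The gap between the single-mark shares, 14.5 percentage points, was 1.02 points in lists of equal length. There 883 DMSO sites had both marks, and with the inhibitor 430 (48.7%) had both, 78 (8.83%) H3K27ac alone and 69 (7.81%) H3K4me1 alone. Of 5203 DMSO sites with H3K4me1 alone, most had no peak of either mark with the inhibitor (3112, 59.8%). A further 1323 were partial, 676 had H3K4me1 alone, 52 both marks and 40 H3K27ac alone. The H3K4me1 lists held 25058 and 9673 peaks with DMSO but 4094 and 4242 with the inhibitor. Many of the 5203 sites must therefore lack an inhibitor peak, and they were not counted in lists of equal length.

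The classes were spread unevenly over chromosomes. Chromosome 17 held 12.3% of the sites with H3K4me1 alone and 10.5% of those with both marks, against 4.13% of those with H3K27ac alone. Chromosome 6 held 0.739%, 1.18% and 5.77%, chromosome 13 held 0.575%, 1.33% and 2.88%, and chromosome X 0.657%, 2.07% and 4.47%. Of the 19974 protein-coding genes, 1169 lie on chromosome 17, 1049 on chromosome 6, 338 on chromosome 13 and 848 on chromosome X. On chromosome 21, 49.3% of the sites with H3K27ac in both libraries had H3K4me1 in both, and on chromosome 17 40.8%, against 6.40% on chromosome 6 and 11.7% on chromosome 5. Of the sites with H3K4me1 alone, 30.6% lay in the fullest 10 of 302 windows of 10 Mb, against 23.7% for both marks and 10.3% for H3K27ac alone. The fullest were at 70 to 80 Mb of chromosome 17 (53 sites with H3K4me1 alone), 60 to 70 Mb of chromosome 11 (47) and 200 to 210 Mb of chromosome 1 (46).

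The same skew was in the lists themselves. Chromosome 17 held 10.3% and 9.83% of H3K4me1 peaks with the inhibitor and 5.76% and 5.22% of H3K27ac peaks, a difference of -4.59 percentage points with no overlap (exact permutation p = 0.333). With DMSO it held 6.65% and 8.31% of H3K4me1 peaks. In the widest 4016 peaks of each H3K4me1 list the share was 10.4% and 10.1% with the inhibitor and 7.84% and 9.44% with DMSO. H3K4me3, in comparison, had 5.69% and 5.44% of its inhibitor peaks there.

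**Figure D5:**
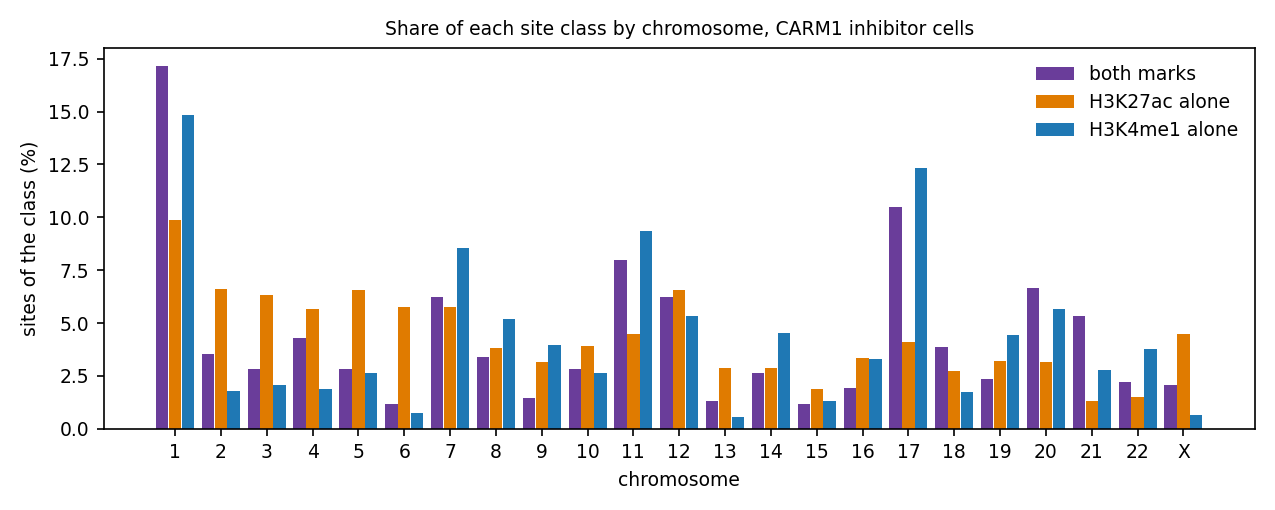
Share (%) of the sites of each class on each chromosome, from 676, 1769 and 1218 sites. H3K4me1 alone and both marks are high on chromosomes 1, 11, 17 and 20, where H3K27ac alone has 9.89%, 4.47%, 4.13% and 3.17% of its sites, and low on chromosomes 6, 13 and X.

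Of the first 10 sites with both marks, ranked by the mark that covered less, 3 lay in MSI2 and 9 touched a gene. The first was at GRK2 (chr11:67265985-67289468), with 19766 and 18715 bp of H3K27ac and 20204 and 19658 bp of H3K4me1. MSI2, an RNA-binding regulator of blood stem cells, held 7 such sites within 296.6 kb of chromosome 17, from 4188 to 22256 bp wide. The widest of them (chr17:57436011-57458266) had 20471 and 20612 bp of H3K27ac and 17106 and 17690 bp of H3K4me1. None of the 7 had H3K4me3, and each had both marks in all DMSO libraries. The site at CD81, a tetraspanin of the cell surface, had 16545 and 13782 bp of H3K27ac and 16579 and 16000 bp of H3K4me1. MEF2D had 17202 and 18066 bp against 15803 and 13600 bp, and 5753 and 5431 bp of H3K4me3. Sites of this class also stood 49038 bp from MPEG1, a perforin-like gene, in LHPP, in GALNT2, a glycosyltransferase gene, and in BAHCC1. Counted by nearest gene, TOMM20, a mitochondrial import receptor, had 5 such sites, none in the gene. BCL2, which blocks cell death, had 3 such sites nearest to it, 2 of them in the gene. The leukaemia factor RUNX1 had 4 nearest to it, of which 1 lay in the gene.

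Of the first 10 sites with H3K27ac alone by mean cover, 8 lay at a gene end, 1 in a gene body and 1 between genes. RUBCNL came first (chr13:46369647-46391053), with 20434 and 21407 bp of H3K27ac. No inhibitor H3K4me1 peak touched this site, while DMSO replicate 1 had 6574 bp of H3K4me1 and DMSO replicate 2 none. At the PAX5 promoter (chr9:37027785-37038300) H3K27ac covered 10454 and 10439 bp and H3K4me3 8369 and 6758 bp. Then followed RHOH, a small GTPase of lymphocytes (9456 and 8411 bp), ZCCHC7, the neighbour of PAX5 (8555 and 7970 bp), and CYFIP2, a regulator of actin (8036 and 7615 bp). JCHAIN, which joins immunoglobulin subunits, had 7940 and 5834 bp. Further members of the first 10 were at ZBTB18, a transcriptional repressor, and at CXXC4.

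The 2 of these 10 sites without H3K4me3 were near CXCR4 and TCL1B. The site 13026 bp from CXCR4, the chemokine receptor of germinal centre migration, had 7200 and 7763 bp of H3K27ac and no H3K4me3. In DMSO it had H3K4me1 in both libraries, at 7415 and 6573 bp, and none with the inhibitor. The site 1454 bp from TCL1B, a relative of a T-cell leukaemia oncogene, had 6919 and 8380 bp, with 8615 and 5337 bp of DMSO H3K4me1. Several genes had more than 1 such site, with the most, 8, nearest to PPP1R2C. There were 6 in FOXP1 and 5 in TCF4, both transcription factors of B cells, and 5 nearest to CXCR4.

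Of the first 10 sites with H3K4me1 alone by mean cover, 7 lay at a gene end and 3 in a gene body. TCEA2, a transcription elongation factor, came first (chr20:64063538-64075736), with 11693 and 10236 bp of H3K4me1. It had H3K27ac in both DMSO libraries, at 5243 and 2407 bp. MYBPH had 9904 and 9845 bp, RARA 8845 and 8593 bp, and LAMA5, a laminin chain, 8513 and 7110 bp. BOP1, a ribosome biogenesis factor, had 9655 and 9569 bp, with 3025 and 1900 bp of H3K27ac in DMSO. SLA, an adaptor of antigen receptor signalling, CRIP2, PMEPA1, PTPN7, a phosphatase of blood cells, and MIDN had no H3K27ac at their sites in any of the 4 libraries of both treatments. MAD1L1, a spindle checkpoint gene, held 15 sites with H3K4me1 alone, the most of any gene, all with H3K4me1 in both DMSO libraries and 3 with H3K27ac in both. SEPTIN9, a cytoskeletal GTPase, held 10, and NFATC1, a factor of calcium signalling, was nearest to 7.

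The 3 classes named partly the same genes. The nearest or overlapped genes numbered 541 for both marks, 1465 for H3K27ac alone and 905 for H3K4me1 alone. Both marks and H3K27ac alone shared 146 genes (26.99% and 9.97% of their lists), both marks and H3K4me1 alone 168 (31.1% and 18.6%), and the 2 single-mark classes 110 (7.51% and 12.2%). Of 19188 genes, 2.42% had a site with both marks in the gene or within 2 kb, 7.40% H3K27ac alone and 4.33% H3K4me1 alone. Each pair of classes thus shared more genes than these shares over all genes, though the latter were not counted by nearest gene. Of 1558 miRNA hairpins, 6 lay in sites with both marks, 20 in sites with H3K27ac alone, among them MIR191, MIR425 and MIRLET7I, and 13 in sites with H3K4me1 alone, among them MIR141 and MIR200C.

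Gene lists were counted over 19188 genes, a gene counting if a site touched it or lay within 2 kb. Where a gene had several sites of a class, the values are those of the first by the same ranking. Of all these genes 2.42% had a site with both marks, 7.40% one with H3K27ac alone and 4.33% one with H3K4me1 alone, and at a gene end the shares were 1.20%, 5.80% and 2.25%. Among 24 B-cell identity genes, 5 had a site with both marks (20.8%), 7 with H3K27ac alone (29.2%) and 4 with H3K4me1 alone (16.7%), of which 3, 7 and 1 had it at a gene end. Both marks were at CD79B, a chain of the B-cell receptor (7658 and 5924 bp of H3K27ac, 10177 and 6945 bp of H3K4me1), and at the transcription factors IKZF3 (6730 and 5062 against 5272 and 5424 bp), IKZF1, SPIB and PAX5. H3K27ac alone was at the ends of EBF1, a B-lineage factor (4631 and 4218 bp), CD74, the invariant chain (3750 and 3720 bp), VPREB3, BLNK, a signalling adaptor, FCRLA, BCL11A and PAX5. H3K4me1 alone was at SPIB, BLK, POU2F2 and PAX5. PAX5 had a site of each class: 2 with H3K27ac alone, 1 with both marks and 1 with H3K4me1 alone.

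Of 16 genes of B-cell receptor signalling, 3 had both marks (18.8%), 7 H3K27ac alone (43.8%) and 3 H3K4me1 alone (18.8%). The kinase SYK had 5162 and 5029 bp of H3K27ac alone at its end, and PIK3AP1 4127 and 3657 bp. The lipid phosphatase INPP5D and the kinase subunit PIK3CD each had sites with both marks and with H3K27ac alone. DOK3, an inhibitory adaptor, had 5037 and 4459 bp of H3K4me1 alone. Of 19 germinal centre genes 1 had both marks (MEF2D), 3 H3K27ac alone (CXCR4, MME and EZH2) and 2 H3K4me1 alone (CXCR5 and MEF2D). Of 12 plasma cell genes the counts were 1 (MZB1), 4 (JCHAIN, CD38, TNFRSF17 and SSR4) and 0.

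NF-kB and TRAF regulators had both marks at 3 of 17 (RELA, RELB and TRAF3), H3K27ac alone at 5 (NFKBIA, REL, RELB, TNFAIP3 and TRAF3) and H3K4me1 alone at 2 (TRAF3 and BCL3). TRAF3, which holds NF-kB signalling back, had sites of all 3 classes. The first of its 2 sites with H3K4me1 alone (5553 and 5599 bp) had H3K27ac in both DMSO libraries, at 5640 and 5289 bp. Interferon response genes had 2 of 22 in each class, with IRF2 in all 3. Immediate early genes had H3K27ac alone at 5 of 22 (BTG2, JUND, ZFP36, BTG1 and KLF6), all at gene ends, both marks at JUNB and H3K4me1 alone at NR4A1.

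Acetyltransferase and H3K4 enzyme genes had H3K27ac alone at 9 of 31 (29.0%), both marks at 1 and H3K4me1 alone at 0. EP300 was one of them, with 1282 and 1785 bp of H3K27ac at its end. The others were the H3K4 methyltransferases KMT2A, KMT2C, SETD1A and SETD1B, the demethylases KDM5A and KDM5B, the acetyltransferase KAT7 and the coactivator NCOA2. KDM5B also had the site with both marks, in its gene body (2722 and 2468 bp of H3K27ac, 4523 and 3727 bp of H3K4me1). Cell cycle genes had H3K4me1 alone at 5 of 34 (14.7%), H3K27ac alone at 2 (RB1 and BUB1) and both marks at 1 (E2F1). The 5 were the cyclin gene CCND3, the kinase gene CDK6, E2F1, the helicase gene MCM5 and MYBL2. MYBL2 had H3K27ac in both DMSO libraries there, at 1289 and 1059 bp. Ribosomal protein genes, the control list, had 0, 1 (RPLP2) and 1 (RPS19) of 31.

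Markers of other cell types were counted in the same way. Of 15 T and NK cell markers, KLRD1 had a site with H3K27ac alone (6.67%, against 7.40% of all genes). Of 9 epithelial and stromal markers COL1A1 had a site with H3K4me1 alone (11.1%, against 4.33%), and 0 of 13 myeloid markers had a site of any class. Lists this short do not set these markers apart from all genes.

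A set of single genes was read in every library, as base pairs covered in the gene and 2 kb around it. PAX5 had 14300 and 13972 bp of H3K27ac and 3673 and 4731 bp of H3K4me1 with the inhibitor, against 15536 and 9158 bp and 22250 and 12830 bp with DMSO. EBF1 had 9241 and 9209 bp of H3K27ac with the inhibitor, and its H3K4me1 was 4306 and 0 bp, against 22029 and 4254 bp with DMSO. For both genes H3K27ac overlapped between treatments. The PAX5 groups did not overlap for H3K4me1, with the inhibitor libraries lower, while at EBF1 the groups overlapped. MEF2D had 13861 and 14493 bp of H3K27ac and 18251 and 14107 bp of H3K4me1. IRF8, a germinal centre factor, had no H3K27ac in any of the 4 lists of both treatments, and its H3K4me1 was 0 and 975 bp with the inhibitor against 14477 and 7974 bp with DMSO. Whole H3K4me1 lists covered 9.11 and 8.30 Mb with the inhibitor against 60.4 and 22.1 Mb with DMSO. Lower H3K4me1 cover with the inhibitor was therefore not particular to these genes.

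BCL6, the germinal centre repressor, had neither mark in any inhibitor library, although H3K4me3 covered 2419 and 2217 bp there. CD79A had 2172 and 3722 bp of H3K27ac and 0 and 1825 bp of H3K4me1. BACH2, a repressor of plasma cell fate, PRDM1 and IRF4, the drivers of that fate, and CARM1 itself each had H3K27ac in 1 inhibitor library and H3K4me1 in neither. CREBBP had 1860 and 0 bp of H3K27ac and 1069 and 2172 bp of H3K4me1. KMT2D, which places H3K4me1, had 1902 and 3348 bp of H3K27ac and 4152 and 2119 bp of H3K4me1, but in partial sites. EP300 had a site with H3K27ac alone at its end and no H3K4me1 peak in any library of either treatment.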

How the data were processed

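The 16 samples were 12 ChIP libraries, each with a deposited peak list, and 4 inputs, not analysed here. The submitters' processing notes name Bowtie 1.1.2, MACS 1.4.2 and hg38. The peak threshold, the read filters and whether inputs entered the calling are not stated there. The authors deposited 1 list per library with chromosome, start and end and no score, so depth is unknown, and presence and covered base pairs were compared.

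Intervals were computed with Python 3.11.15, numpy 2.4.6 and pandas 2.3.3. Genes came from the RefSeq GRCh38.p14 table, which held 19974 protein-coding genes, and 5′ ends for 15812 of them were in its promoter table. For gene lists, 786 genes in stretches over 2 Mb with no peak in any of the 12 lists were left out. Groups of 2 libraries were compared by two-sided exact permutation over 6 assignments. Simulated lists tested the code, and the class counts of the 3700 planted sites among 8700 were recovered. The simulated sites stood far apart, so this check does not cover neighbouring peaks as close as those of the real lists.

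Named genes were those of the first 10 sites of each class by mean covered base pairs (for both marks, by the mark that covered less), members of 13 gene lists with a site, and 14 genes whatever their state, of which 1 is not reported here. Genes with sites of unequal cover or several sites, and the miRNAs named, were added after their values were seen. The members and lists were chosen with earlier results of these data known. Alternatives were the overlap, joining distance, list length, narrow peaks, windows, base-pair sites, a replicate block and each library left out.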

Additional observations from a re-analysis of the deposited data

Results flagged for a closer look

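H3K27ac and H3K4me1 stood in opposite order under the 2 treatments in 2 measures. The share of peaks overlapping the other mark was lower for H3K27ac than for H3K4me1 in both inhibitor replicates, by -7.06 and -5.24 percentage points, and higher with DMSO, by 45.4 and 22.4. The inhibitor difference minus the DMSO difference was -40.1 points. These shares depend on list length: H3K27ac lists were the longer with the inhibitor and the shorter with DMSO (7885 and 4016 against 25058 and 9673 peaks). In lists of equal length, an alternative added after seeing the data, the differences were -2.84 and -3.31 with the inhibitor and 4.21 and 0.722 with DMSO, which leaves -5.54 points. The share of peaks between genes was higher for H3K27ac with the inhibitor, by 0.914 and 5.94 points, and lower with DMSO, by -6.18 and -5.66, which gives 9.35 points, or 6.59 in lists of equal length. Neither of these differences between treatments was tested.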

How the results depend on the processing

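Sites with both marks numbered 611 to 700 under other overlap rules, joining, list lengths and widths, and 748 to 941 without 1 library. Leaving out a library moved H3K27ac alone to between 2028 and 3175 sites and H3K4me1 alone to between 1302 and 2715. With base pairs covered by both libraries of a mark the 2 classes numbered 2599 and 1663. The log2 ratio of median widths, -0.01 as reported, turned to 0.10 in lists of equal length and 0.046 without peaks under 1 kb, and ranged from -0.11 to 0.091 without 1 library. The gene-end excess of H3K27ac alone over both marks, 25.3 percentage points, was 20.3 with base-pair sites, 30.4 with 5′ ends alone, and 16.0 to 23.5 without 1 inhibitor library. The share of H3K27ac-alone sites with H3K4me1 in both DMSO libraries, 28.0%, was 31.3% with 50% overlap, 10.5% in lists of equal length, 39.4% with base-pair sites, and 20.1% to 71.5% without 1 library, the last without H3K4me1 of DMSO replicate 2. The excess of H3K27ac alone over H3K4me1 alone at DMSO both-mark sites, 14.5 points, was 1.02 in lists of equal length, 5.27 without H3K27ac of DMSO replicate 2 and 26.4 without H3K4me1 of DMSO replicate 2. The causes were not tested. In lists of equal length the gene-end difference between marks was 11.7 points and that in H3K4me3 overlap 26.98. Differences in overlap, gene-end share and H3K4me3 kept their direction under all alternatives run. Results on DMSO sites, chromosome 17 and DMSO libraries left out were added after seeing the data.

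With the replicate number as a block the differences were -6.15, 13.4, 28.8 and -30.5 points and -0.01 on the log2 scale, the same values, with exact sign permutation p of 0.5 for the first 4, the smallest that 2 pairs allow, and 1 for the width. Of 286 sites with 1 library of each mark, 174 (60.8%) had the same number, more than had different numbers. The replicate differences in covered bp at both-mark sites had r = 0.0159 across sites. The first measure leans towards a pairing and the second shows none, so these values do not settle it and the pairing rests on the shared number. Depth is unknown and limits every absence of a peak.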
